A study of Mus musculus with 6 samples.

Results

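The cytosolic ribosomal protein genes were followed across 6 expression arrays of 4T1.2 mouse mammary carcinoma cells. A gene was included when its name in the scanner files began with Rpl or Rps and a digit, leaving out the Rps6k kinases and pseudogenes. This gave 78 genes on 132 probes, and 77 of them were among the 15414 genes bright enough to test. The remaining member, Rpl3l, a relative of Rpl3 known from heart and skeletal muscle, did not rise above background on a single array. Of the 77 genes, 45 had large subunit names, 31 had small subunit names, and the last was Rps19bp1, which met the name rule but encodes a nucleolar partner of Rps19.

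The study asked how forced expression of Irf7, a transcription factor of the type I interferon response, changed basal expression in these cells. 4T1.2 is a BALB/c line derived from a mammary tumour. Both groups carried the pMSCV retroviral vector, either empty (base vector, 3 arrays) or with Irf7 (IRF7, 3 arrays), packaged in HEK-293 cells. Both were selected with puromycin, cloned from single cells and then pooled from several clones, and were grown untreated in the same serum-supplemented medium. Each group is therefore 1 pooled population. The p-values here rest on the spread of arrays within both groups, which limma's test moderates over all genes. They do not measure the spread between separately made populations. The vector, and not the gene's own promoter, drove the added Irf7.

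A ribosome consists of a small subunit, which decodes the message, and a large subunit, which joins the amino acids, and nearly every ribosomal protein is needed once per particle. The genes are scattered over the genome, yet their messages are usually kept in step. Many of these messages start with a C and a run of pyrimidines, the terminal oligopyrimidine tract, through which mTOR controls their translation and Larp1 binds and stabilises them. Some ribosomal proteins have a paralog that can take their place, and some have known activities outside the ribosome.

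The introduced gene was checked first. Irf7 gave intensities of 246.4, 195.4 and 210.5 with base vector and 4486, 4963 and 5012 with IRF7, a 19.4-fold rise (log2 4.28, SE 0.049, adjusted p = 3.18e-07). Of all genes tested, 4897 were higher and 4500 lower in IRF7. Of the mammary epithelial markers, 5 of 6 were well above background on all 6 arrays and Cldn4 was on none. Their summed intensity was 392000 to 453000 in base vector and 509000 to 563000 in IRF7. Krt8 and Krt18 made up most of it, and single markers differed more. Krt7 gave 7540, 6230 and 7020 in base vector and 46700, 47900 and 52500 in IRF7. Epcam gave 62.2, 72.9 and 65.2 against 206, 161 and 162. Of 8 markers of other cells, 3 (Cd3e and Cdh5 among them) were above background on all 6 arrays and Itgam, Pecam1 and Adipoq on none. The summed intensity of these 8 was 330 to 427 in base vector and 554 to 713 in IRF7, and its part in the results was not tested. Within it Cdh5 gave 115, 107 and 113 in base vector and 256, 262 and 282 in IRF7.

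The ribosomal protein genes as a whole sat slightly lower in IRF7 when arrays were scaled to their 75th percentile, and slightly higher when they were not scaled. On scaled values 47 of 77 members fell (background over all genes 29.2%) and 3 rose (background 31.8%), and 27 did not pass. The members are bright, with standard errors of 0.028 to 0.068, so small changes could pass. The background includes dimmer, less precise genes and was not matched for intensity. The test was limma's moderated test with Benjamini-Hochberg adjustment over all genes and a threshold of 0.05. The median change was -0.15 on the log2 scale, 0.904 of the base vector level, beside a median of 0.027 over all genes. Most of these differences were small, with 58 members within 0.25 of 0 and 1 member, Rpl22l1, at least 2-fold lower. All 3 IRF7 arrays lay below all 3 base vector arrays for 59 members (background 32.3%) and above them for 3 (background 35.5%).

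**Figure D1:**
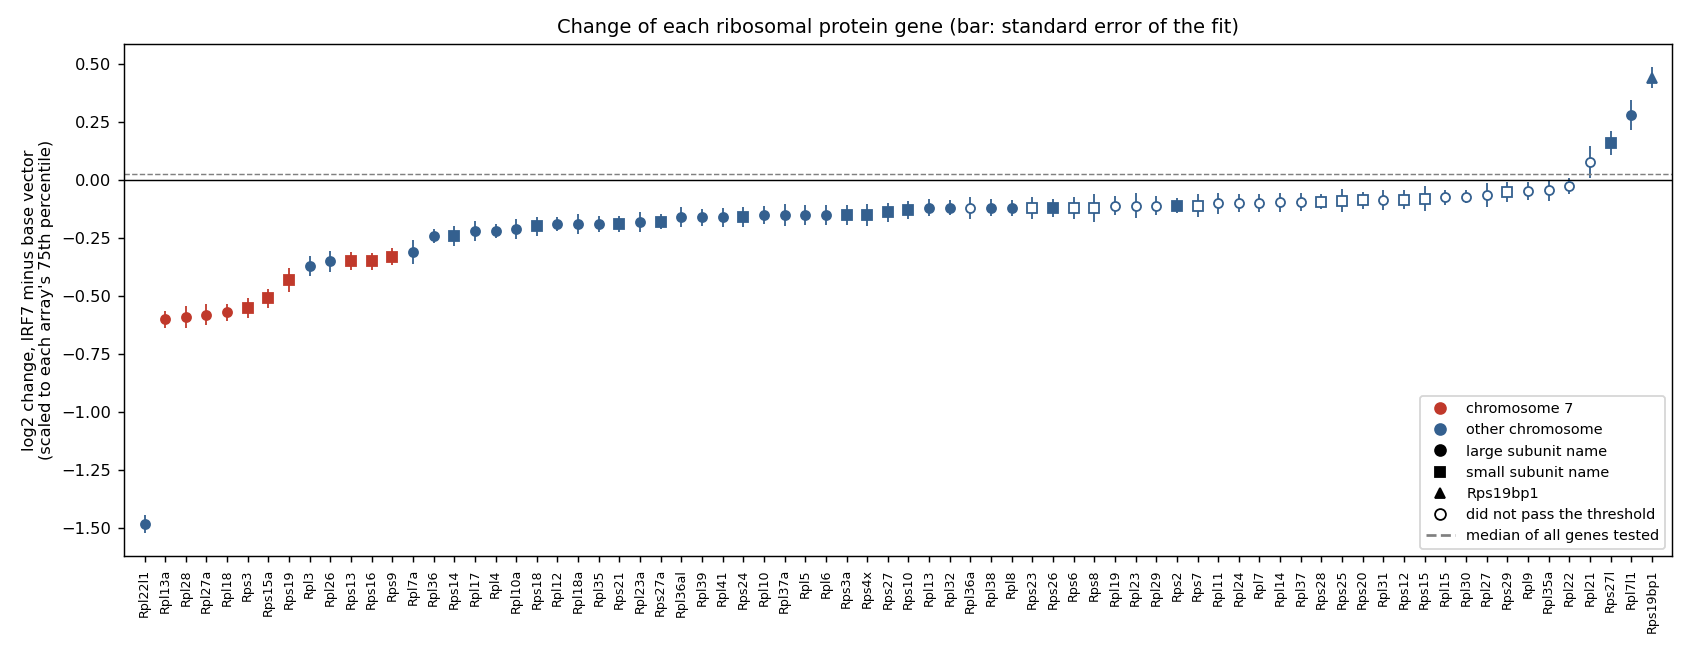
Log2 change (IRF7 minus base vector, scaled to each array's 75th percentile) of 74 of the 77 ribosomal protein genes tested, in rank order, with the standard error of the fit as a bar. Red marks chromosome 7, circles large and squares small subunit names, and open symbols did not pass the threshold; the 10 chromosome 7 genes drawn span -0.60 to -0.33, and most others lie between -0.25 and 0, a side of 0 that changes without scaling.

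The direction of the typical member depended on the scale. Without scaling, 55 of 77 members were above 0 and the median was 0.055, with 4 called higher (background 41.8%) and 10 called lower (background 11.0%). Scaling subtracted 0.20 from the log2 change of each member, since the 75th percentile was 1153 to 1298 with base vector and 1299 to 1467 with IRF7. The median of all genes moved with it, from 0.23 unscaled to 0.027. The distance from the members' median to that of all genes was -0.17 unscaled, with 75th percentile scaling and with median centring, and -0.056 after quantile normalization. Under quantile normalization the members' median was -0.049, with 32 called lower (background 32.1%) and 2 higher (background 30.8%). With median centring it was -0.18, with 17 called lower (background 21.9%) and 1 higher (background 18.3%). The median member's unscaled log2 intensity was 17.736, 17.55 and 17.598 in base vector and 17.603, 17.607 and 17.701 in IRF7, so the groups overlapped. Calls that held under all 4 treatments of the scale numbered 10 lower members and 1 higher member, Rps19bp1.

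**Figure D2:**
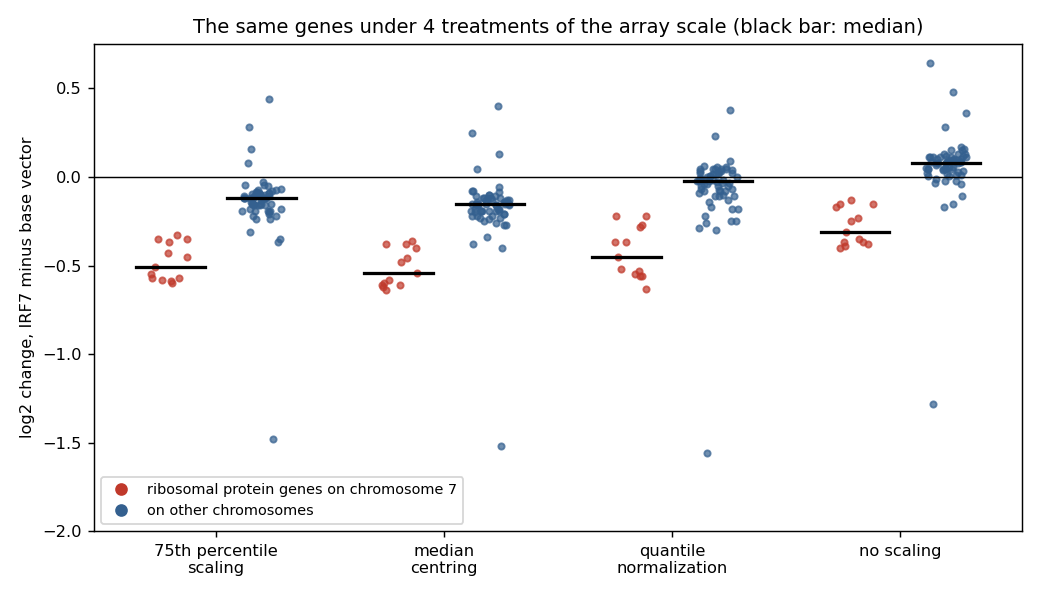
Log2 change (IRF7 minus base vector) of the same 77 genes under 4 treatments of the array scale; each point is a gene, red on chromosome 7 and blue elsewhere, and black bars are medians. The chromosome 7 median is -0.51, -0.54, -0.45 and -0.31 from left to right, and that of the others is -0.12, -0.15, -0.024 and, without scaling, 0.078.

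The large and small subunit genes had the same median change on scaled values. Among the 45 large subunit genes, 27 fell (background 29.2%) and 1 rose (background 31.8%), with a median of -0.15 (0.05 unscaled). Unscaled 5 were called lower, and 20 under quantile normalization. Among the 31 small subunit genes, 20 fell and 1 rose, with a median of -0.15 (0.055 unscaled). Unscaled 5 were called lower, and 12 under quantile normalization. Within each array, the mean level of the standard large subunit genes off chromosome 7 minus that of the small subunit genes was -0.733, -0.741 and -0.732 in base vector and -0.765, -0.741 and -0.738 in IRF7. This difference does not depend on the array scale, and base vector replicate 2 lay at the same value as IRF7 replicate 2.

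The members differed by where they lay in the genome. The 13 members on chromosome 7 all fell on scaled values, by 0.33 to 0.60 with a median of 0.51, which is 0.702 of the base vector level. Chromosome 7 genes in general were also lower (background 66.3% called lower and 67.8% with no overlap), with a median of -0.38 over 1158 genes against 0.048 over the 14256 genes elsewhere. Unscaled, all 13 members stayed below 0 with a median of -0.31, and 9 were called lower (background 40.2%). Rps9, Rps16 and Rps13 were among those that did not pass unscaled. Irf7 itself lies on chromosome 7, but the vector drove its added copy, so its rise is no measure of that chromosome.

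In the order of their probes along chromosome 7 (build mm7), the fall was 0.33 for Rps9, 0.59 for Rpl28, 0.43 for Rps19, 0.35 for Rps16 and 0.60 for Rpl13a. It went on with 0.57 for Rpl18, 0.55 for Rps3, 0.58 for Rpl27a, 0.35 for Rps13 and 0.51 for Rps15a. The probes span chr7:3327614-114037718, and the size of the fall followed no steady order along that stretch. The 4 large subunit genes there (Rpl28, Rpl13a, Rpl18 and Rpl27a) had a median of -0.58 and the 9 small subunit genes one of -0.43. A subunit comparison on this chromosome rests on those 4 genes and was not tested.

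Within each array the mean level of the chromosome 7 members could be set against that of the other members, free of the array scale. In the base vector arrays the differences were -0.123, -0.122 and -0.11. In the IRF7 arrays the differences were -0.465, -0.459 and -0.457. The groups were far apart and the arrays within a group nearly equal.

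**Figure D3:**
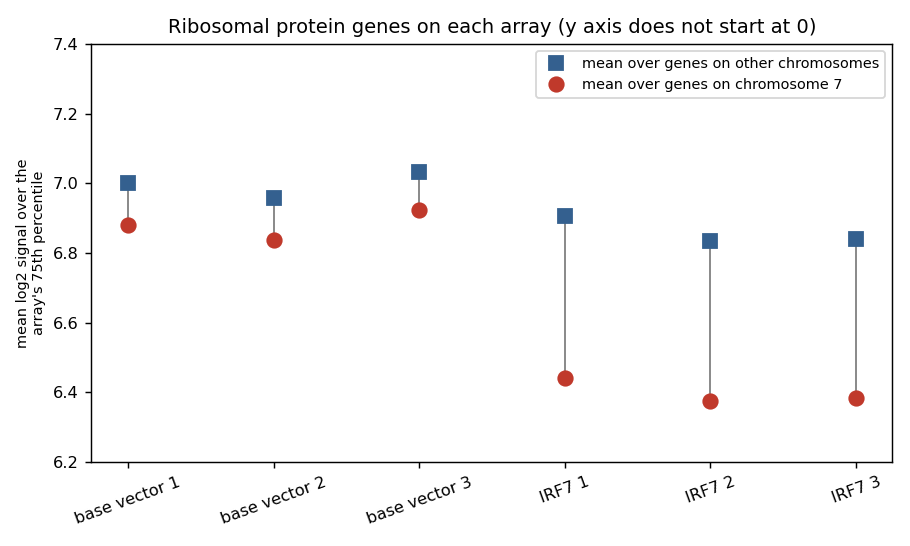
Mean log2 intensity over the array's 75th percentile, for the 13 ribosomal protein genes on chromosome 7 (red circles) and the 64 on other chromosomes (blue squares), on each of the 6 arrays; the grey line is the gap. The gap is -0.123 to -0.11 on the base vector arrays and -0.465 to -0.457 on the IRF7 arrays.

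Rpl13a, a large subunit protein known for leaving the ribosome to silence inflammatory messages after interferon gamma, fell most among the standard ribosomal proteins. Its probe (A_51_P235311, chr7:41302818-41302993, minus strand, mm7) gave 135600, 119400 and 129000 in base vector and 92560, 96490 and 101100 in IRF7. Every IRF7 array lay below every base vector array, also before scaling. The fall was 0.60 (SE 0.036, adjusted p = 5.14e-05), leaving 65.8% of the base vector level, and the unscaled change was -0.40 (adjusted p = 0.00542).

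Rps3, a protein of the message entry site that also serves in DNA repair and as a partner of NF-kB, gave 283900, 239400 and 259100 in base vector and 199100, 199700 and 213000 in IRF7. The groups did not overlap. It fell by 0.55 (SE 0.042, adjusted p = 0.00014), and its second probe fell by 0.72 (adjusted p = 7.98e-05). Rps19, the gene most often mutated in Diamond-Blackfan anaemia, gave 163900, 147700 and 155400 against 133200, 130400 and 135200. It fell by 0.43 (SE 0.051, adjusted p = 0.000798), and unscaled its change of -0.23 was close to the threshold (adjusted p = 0.0495).

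The other large falls on this chromosome were of like size. Rpl28 kept 66.5% of its base vector level, Rpl27a 67.1% and Rpl18 67.4%. Rpl28 gave 178800, 153600 and 172700 in base vector and 120200, 126700 and 139000 in IRF7, with no overlap. The smallest fall, of Rps9, left 79.5%, with a change of -0.13 unscaled (adjusted p = 0.263).

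Off chromosome 7 the members formed a narrow band whose calls followed the scale. On scaled values 34 of 64 fell (background 26.2%) and 3 rose (background 33.7%), with a median of -0.12. Unscaled, the median was 0.078, with 1 called lower (background 8.68%) and 4 higher (background 44.0%). Under quantile normalization 19 were called lower (background 29.3%) and 2 higher (background 32.6%), and with median centring 4 lower (background 18.8%) and 1 higher (background 19.3%). The large subunit genes of this set numbered 41, with 23 lower and a median of -0.12 (0.076 unscaled), and the small subunit genes 22, with 11 lower and a median of -0.12 (0.082 unscaled). Slide and group overlapped only through base vector replicate 1, since it shared slide 1 with all 3 IRF7 arrays. With slide as a block 13 of the 64 were called lower (background 19.4%) and 2 higher (background 25.1%), and within slide 1 alone 15 were called lower (background 20.7%). On chromosome 7 all 13 were called lower both ways (background with slide as a block 59.1%), as they were with median centring (background 59.8%) and quantile normalization (background 67.4%). Leaving out 1 array gave 17 (without IRF7 replicate 2 or without IRF7 replicate 3), 18 (without base vector replicate 1), 19 (without base vector replicate 3), 31 (without base vector replicate 2) and 43 (without IRF7 replicate 1), where 22.7 to 24.7% of all genes off chromosome 7 were called lower.

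On scaled values the arrays of a group shifted together across the members. Within base vector, replicate 2 was then the lowest array for 63 members and replicate 3 the highest for 60. Within IRF7, replicate 1 was the highest for 64. The order depended on the scaling. Unscaled, the median member was highest in base vector replicate 1 (17.736) and in IRF7 replicate 3 (17.701). The median member's scaled level was 7.394, 7.38 and 7.401 in base vector and 7.261, 7.158 and 7.182 in IRF7. The groups did not overlap on this scale, and they did before scaling.

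The largest change of any member was in a paralog, Rpl22l1, on chromosome 3. Rpl22l1 closely resembles Rpl22, a large subunit protein that is lost in some T cell leukaemias, and can replace it in the ribosome. The 60-base probes of the pair are shown, though whether either also binds the other gene's message was not tested. They are from the scanner files, 5′ to 3′, at chr4:151319591-151319650 for Rpl22 and chr3:28622984-28623043 for Rpl22l1, both on the plus strand of mm7. Capitals mark the longest stretch they share, of 6 bases.
Rpl22: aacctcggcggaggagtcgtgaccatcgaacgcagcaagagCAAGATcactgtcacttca
Rpl22l1: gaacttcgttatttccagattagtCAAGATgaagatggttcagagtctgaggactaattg

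Rpl22l1 gave 65230, 55670 and 59690 in base vector and 23950, 23950 and 26190 in IRF7. The IRF7 arrays sat well below the base vector arrays, both scaled and unscaled. It fell by 1.48 (SE 0.040, adjusted p = 4.11e-06), leaving 35.7%, and the unscaled change was -1.28 (adjusted p = 8.1e-06). A second Rpl22l1 probe, designed on a cDNA clone and far dimmer, changed by 0.61 (adjusted p = 0.132) and did not pass. Rpl22 gave 106400, 92210 and 100100 in base vector and 105900, 111500 and 119600 in IRF7. These overlapped on the scaled values, with a change of -0.026 (95% interval -0.11 to 0.06, adjusted p = 0.55). A second, dimmer Rpl22 probe gave 7790, 6710 and 7260 in base vector and 5160, 5380 and 5810 in IRF7, and fell by 0.61 (adjusted p = 0.000103). The pair of Rpl22 probes therefore differed in their change, and the comparison with Rpl22l1 rests on the brighter.

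The within-array difference between paralog and standard gene was compared in 4 pairs with a two-sided exact permutation test over arrays, where 3 against 3 cannot give less than 0.1. For Rpl22l1 minus Rpl22 the groups differed by -1.46 on the log2 scale, 2.75-fold, with no overlap (exact p = 0.1, 0.133 adjusted over the 4 pairs). Rps27l minus Rps27 differed by 0.31 and Rpl7l1 minus Rpl7 by 0.37, also with no overlap (exact p = 0.1 each). Rpl36al minus Rpl36a differed by -0.04, with overlap (exact p = 0.2). No pair could reach 0.05.

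The members that rose were a p53-induced paralog, a nucleolar paralog and the binding protein. Rps27l gave 56190, 46220 and 49720 in base vector and 64100, 62090 and 69230 in IRF7, and rose by 0.16 (SE 0.052, adjusted p = 0.0377). Its call was lost with slide as a block (adjusted p = 0.272) and under quantile normalization (adjusted p = 0.0776). Its standard partner Rps27 fell by 0.14 (adjusted p = 0.0266), and was 0.057 unscaled. Rpl7l1 gave 4111, 3651 and 4252 in base vector and 5056, 5619 and 6082 in IRF7. It rose by 0.28 (SE 0.063, adjusted p = 0.011), and its second probe was 0.19 (adjusted p = 0.062), while Rpl7 was -0.10 (adjusted p = 0.0725). Rps19bp1 gave 11980, 9596 and 10410 against 15490, 16420 and 17660, with no overlap. It rose by 0.44 (SE 0.045, adjusted p = 0.000439), and by 0.64 unscaled, and its second probe rose by 0.53 (adjusted p = 0.000569). All 3 members called higher on scaled values were thus paralogs or Rps19bp1, so leaving these out left 0 by construction. Of the other 72 members, 45 were called lower on scaled values (background 29.2%). Unscaled, 1 of the 72 was called higher (background 41.8%) and 9 lower (background 11.0%).

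**Figure D4:**
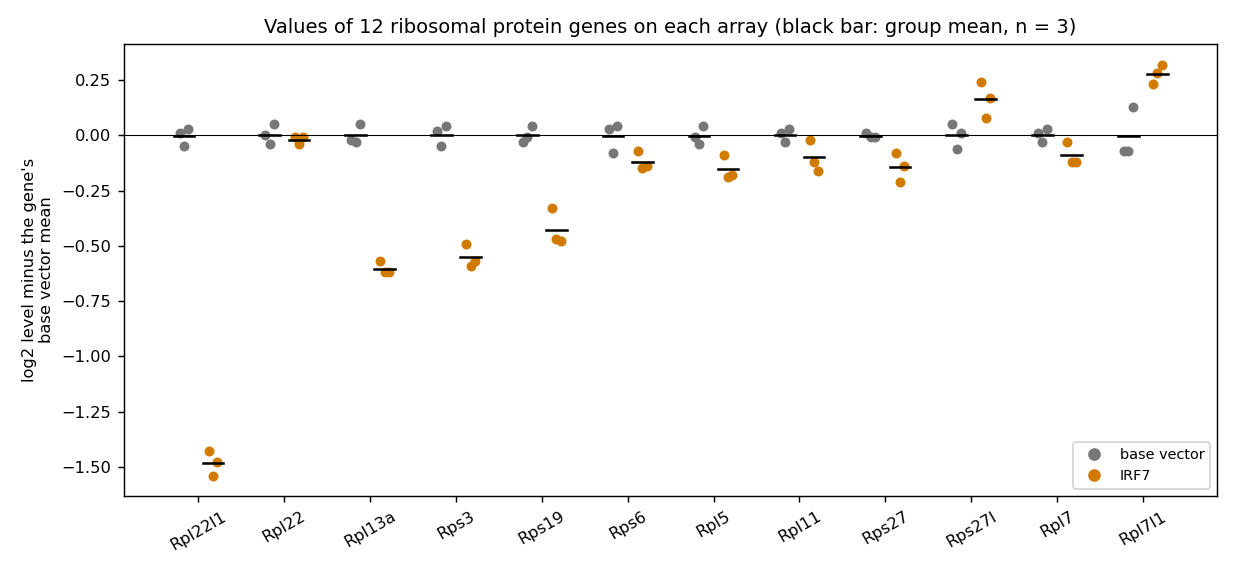
Log2 level of 12 ribosomal protein genes on each array, scaled to the 75th percentile and set relative to the gene's base vector mean; grey points are base vector, orange points IRF7, and black bars group means (n = 3). Rpl22l1 lies near -1.48 in IRF7 while Rpl22 lies at -0.026, the 3 chromosome 7 genes Rpl13a, Rps3 and Rps19 lie between -0.60 and -0.43, and Rps6, Rpl5, Rpl11, Rps27 and Rpl7 lie at -0.15 to -0.10, on the other side of 0 when unscaled.

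Several members have known activities outside the ribosome. Rpl5 and Rpl11, which with Rpl23 bind Mdm2 and so stabilise p53, had changes of -0.15 (adjusted p = 0.0206), -0.10 (adjusted p = 0.095) and -0.11 (adjusted p = 0.118), and 0.046, 0.10 and 0.086 unscaled. Rpl5 alone of these passed, with intensities of 220700, 191900 and 207400 in base vector and 208300, 209800 and 221000 in IRF7. These intensities overlap, the unscaled change did not pass, and the call was lost with slide as a block (adjusted p = 0.134). With slide as a block Rpl23 passed instead, at -0.22 (adjusted p = 0.0209), and Rpl11 did not (adjusted p = 0.277). Rpl26, which binds the p53 message, gave 320000, 264100 and 287400 against 253800, 256700 and 272100. It fell by 0.35 (SE 0.044, adjusted p = 0.001), and its change unscaled was -0.15 (adjusted p = 0.218).

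Rps6, the small subunit protein phosphorylated downstream of mTOR, gave 116500, 96040 and 106500 in base vector and 108900, 110700 and 117400 in IRF7. The groups overlapped, and its change was -0.12 (95% interval -0.23 to -0.0041, adjusted p = 0.0697), or 0.083 unscaled. Of the genes mutated in Diamond-Blackfan anaemia, Rps10 and Rps26 fell by 0.13 and 0.12 on scaled values and were 0.069 and 0.077 unscaled. Neither passed with slide as a block (adjusted p = 0.208 and 0.191). Rps14, deleted in a form of myelodysplastic syndrome, fell by 0.24 (adjusted p = 0.00402), with -0.041 unscaled.

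Rpl38, needed for Hox messages in the mouse embryo, fell by 0.12 (adjusted p = 0.0321), with 0.082 unscaled, and the call was lost with slide as a block (adjusted p = 0.238). Rpl10a fell by 0.21 (adjusted p = 0.00719), with -0.011 unscaled, and Rps25, which internal ribosome entry sites need, was -0.09 (adjusted p = 0.171), with 0.11 unscaled. Rpl10, one of the last proteins to join the large subunit, fell by 0.15, with 0.05 unscaled, and did not pass with slide as a block (adjusted p = 0.108). Rps27a, made as a fusion with ubiquitin, fell by 0.18, with 0.025 unscaled, and Rps20 was -0.088 (adjusted p = 0.0899), with 0.11 unscaled. Rpl36a and Rpl36al were -0.12 (adjusted p = 0.0684) and -0.16 (adjusted p = 0.0191). Both were above 0 unscaled, at 0.076 and 0.036, and Rpl36al did not pass with slide as a block (adjusted p = 0.107).

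Rpl3, which reaches the peptidyl transferase centre, was the standard member off chromosome 7 with the largest fall on 75th percentile scaling without a block. It gave 162500, 138700 and 148700 in base vector and 126500, 127700 and 145500 in IRF7. It fell by 0.37 (SE 0.043, adjusted p = 0.000737), with -0.17 unscaled (adjusted p = 0.179). Rpl7a on chromosome 2 fell by 0.31 (adjusted p = 0.00295), with -0.11 unscaled (adjusted p = 0.365).

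Probes of the same gene did not always move alike. Of 39 members with at least 2 probes above background, 13 had probes on opposite sides of 0, and in 12 of these the brightest probe was below 0 and a dimmer one above it on scaled values. Unscaled, 10 members had probes on opposite sides of 0, and 5 of them were among those 13 (Rpl21, Rpl22l1, Rps13, Rps15a and Rps18). For Rps12 the bright probe gave 332000, 295000 and 308000 in base vector and 325000, 347000 and 339000 in IRF7 (log2 -0.085). Its dim probe, from a cDNA clone, gave 602, 563 and 525 against 1050, 1170 and 1160 (log2 0.80, adjusted p = 8.67e-05). The dim arrays did not overlap and the bright ones, once scaled, differed little. Other dimmer probes were at 0.67 for Rpl13, 0.62 for Rpl35a, 0.50 for Rps24, 0.44 for Rpl11, 0.42 for Rps20, 0.22 for Rps18, 0.21 for Rpl23, 0.18 for Rps15a, 0.16 for Rps25 and 0.051 for Rps13. Rpl21 went the other way, with 0.078 for its brightest probe and -0.30 for the dimmer. What the dim probes capture was not tested.

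The members' changes were set against those of their neighbours, the other tested genes with a probe within 1 Mb. For 75 members with at least 5 such genes, Pearson's r was 0.69 and Spearman's rho 0.58, given as a description, since members on 1 chromosome share neighbours. Off chromosome 7 these were 0.26 and 0.28 over 62 members, and on it -0.11 and -0.061 over 13. The neighbours' medians on chromosome 7 ran from -0.52 to -0.18, all 13 below 0. Off that chromosome Rpl26 had neighbours at -0.33 beside its own -0.35, and Rpl7a had neighbours at -0.19. Rpl3 had neighbours at 0.052 beside its own -0.37.

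**Figure D5:**
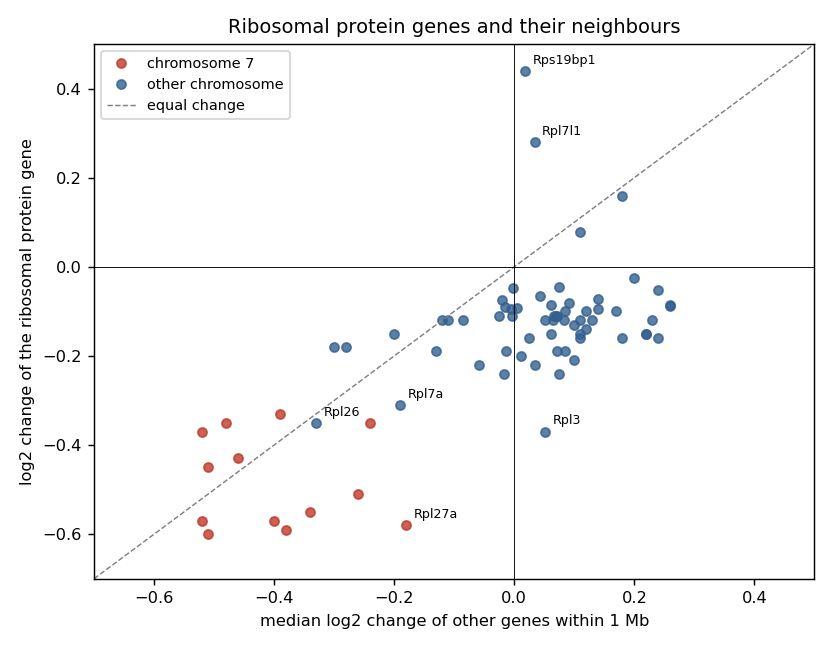
Log2 change (IRF7 minus base vector, scaled to the 75th percentile) of 75 ribosomal protein genes against the median change of the other tested genes within 1 Mb; red points lie on chromosome 7 and the dashed line marks equal change. Red points are at neighbour medians of -0.52 to -0.18; most blue points lie below 0 over neighbour medians from -0.33 to 0.26, a side of 0 that changes without scaling.

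The start of the message was examined for the pyrimidine run that marks this family. RefSeq start windows (GRCm38.p6) were found for 59 members, 70 windows in all. On the coding strand, 24 windows (34.3%) held a C followed by C or T to make a run of at least 6 bases, starting within 5 bases of the annotated start, against 10.2% of 32851 windows of all genes. On chromosome 7 the run was in 6 of 12 member windows and elsewhere in 18 of 58. Windows of 30 bases around the start are shown for members named above, 15 bases on either side. Capitals run from the qualifying C nearest the start to the end of the pyrimidines, so other pyrimidines can precede them, and in Rpl13a the stretch of 14 bases ends beyond the window. They lie at chr7:4792950-4792979 (plus) for Rpl28, chr7:45128731-45128760 (minus) for Rpl13a, chr4:86857353-86857382 (minus) for Rps6, chr3:90213634-90213663 (minus) for Rps27, chr3:28805493-28805522 (plus) for Rpl22l1 and chr7:99483695-99483724 (minus) for Rps3.
Rpl28: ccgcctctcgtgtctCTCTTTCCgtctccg
Rpl13a: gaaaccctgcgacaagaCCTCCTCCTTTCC
Rps6: aagcggaagtcgggcCTCTTTTTCgtgacg
Rps27: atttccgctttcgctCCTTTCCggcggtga
Rpl22l1: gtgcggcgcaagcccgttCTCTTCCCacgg
Rps3: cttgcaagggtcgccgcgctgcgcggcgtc

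The run was thus present in genes that fell most (Rpl22l1, Rpl13a and Rpl28) and in Rps6, which did not pass. In Rps3, which fell by 0.55, these letters were not in the window searched. Annotated starts can be off by some bases, so a missing run says only that it was not found there.

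Ribosomal proteins that the name rule leaves out were also near 0. Of 7 (Rplp0, Rplp1, Rplp2, Rpsa, Fau and Rack1 among them), 3 fell (background 29.2%) and 0 rose (background 31.8%) on scaled values. Their median was -0.083, and all were above 0 unscaled. Rplp1 and Rplp2 of the stalk that recruits elongation factors fell by 0.14 (adjusted p = 0.0442) and 0.19 (adjusted p = 0.00642), with 0.059 and 0.0056 unscaled. Both calls were lost with slide as a block (adjusted p = 0.266 and 0.0758). Rack1, the signalling scaffold on the small subunit, fell by 0.19 (adjusted p = 0.00269), with 0.012 unscaled (adjusted p = 0.923). Rplp0 was -0.083 (adjusted p = 0.0744), Rpsa -0.0062 and Fau 0.013. Rplp2 lies on chromosome 7 and was less low than any of the 13 members there, which was not tested.

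Other parts of the translation apparatus were described from lists of gene names. On scaled values the backgrounds are those over all genes, 31.8% higher and 29.2% lower. Of 78 mitochondrial ribosomal protein genes, 34 rose (43.6%) and 16 fell (20.5%), with a median of 0.11 (0.31 unscaled) beside 0.027 for all genes. Mrps6 rose by 0.63, Mrpl20 by 0.60, Mrpl13 by 0.54 and Mrps10 by 0.46, and the 4 were also called unscaled. Of 18 elongation factors and other messages with a terminal oligopyrimidine tract, 2 rose (11.1%) and 7 fell (38.9%), with a median of -0.074 (0.13 unscaled). Eef2, which moves the ribosome along the message, fell by 0.45 (adjusted p = 8.35e-05). Eif4b fell by 0.33, with -0.13 unscaled (adjusted p = 0.272), and Eef1d rose by 0.21, a call lost with slide as a block (adjusted p = 0.0604). Eif3f, on chromosome 7, fell by 0.51.

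Of 31 initiation factors, 15 rose (48.4%) and 7 fell (22.6%), with a median of 0.11 (0.31 unscaled). Eif5 rose by 0.64, Eif4a2 by 0.50 and Eif2b1 by 0.36, and Eif3k on chromosome 7 fell by 0.63. Of 15 genes of mTOR signalling to ribosomal protein messages, 9 rose (60.0%) and 5 fell (33.3%), with a median of 0.20 (0.40 unscaled). Rptor rose by 0.54 and Mtor by 0.35, whereas Pdcd4, a brake on Eif4a, fell by 1.43 (adjusted p = 9.4e-06) and Akt1s1, an mTOR inhibitor on chromosome 7, by 0.79. Another mTOR inhibitor, Deptor, rose by 0.33 (adjusted p = 0.000607). The list mixes activators and inhibitors, so its counts give no direction of mTOR activity, which was not tested. Of 7 escorts that carry single ribosomal proteins, 3 rose (42.9%) and 1 fell (14.3%), with a median of 0.08 (0.28 unscaled). Ltv1, which brings Rps3 to the small subunit, rose by 0.88, Heatr3 by 0.63 and Tsr2, the escort of Rps26, by 0.54, and Pdcd2l on chromosome 7 fell by 0.38, with -0.18 unscaled (adjusted p = 0.137). The 3 that rose were dim, at 154.7 (Tsr2) to 239.7 (Heatr3) in base vector. The other escorts gave 3471 or more there, and none of those was called higher. Whether intensity bears on these rises was not tested.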

How the data were processed

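Total RNA of 6 cultures was hybridised to single-colour Agilent arrays. Per the file headers, the deposited values are linear intensity, background-subtracted and not scaled between arrays; the software was Agilent Feature Extraction 9.5.3.1, per the submitters' processing notes. The authors' value table was identical to these intensities (largest difference 0). Control and outlier spots were left out, spots of a probe averaged, and the brightest probe well above background on at least 3 arrays stood for a gene. Log2 of the deposited intensity minus the array's 75th percentile was tested over all 15414 genes with limma 3.58.1 (R 4.3.3) lmFit and eBayes, without a block, with Benjamini-Hochberg adjustment at 0.05. Python 3.11.15, pandas 2.3.3 and matplotlib 3.10.9 served for tables and plots. No member probe was saturated, and the number of arrays limits the precision. Probe coordinates are those of the files (mm7, with no exon annotation used here); names and start windows are RefSeq's (GRCm38.p6), with 8455 of 41174 probes keeping the files' names. A 60-base probe may also bind transcripts of processed pseudogenes, which was not tested.

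The members and the gene lists were chosen with earlier results of these data known. Named were the 6 largest rises and falls among members past the threshold without overlap, paralog pairs, members with a known special role or with probes of opposite sign, ribosomal proteins outside the name rule, up to 4 genes per other list with the smallest p, and Irf7; others are named as a description after their values were seen. A few genes of the lists are not reported here by name, though they count in their lists. The procedure was tested on simulated data. Alternatives were no scaling, median centring, quantile normalization, normexp (offset 50), other filters, other probe rules, a robust eBayes trend, slide as a block (fixed or random), slide 1 alone, a replicate block, each array left out, and chromosome 7 genes left out.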

Additional observations from a re-analysis of the deposited data

How the results depend on the processing

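The fall of the 13 chromosome 7 members held in direction and count except unscaled (9 called lower) and with the dimmest probe (10 called lower); their median was -0.31 unscaled, -0.45 under quantile normalization, -0.40 over the mean of probes and -0.37 for the dimmest probe. The members' median turned from -0.15 to 0.055 unscaled and was -0.049 under quantile normalization. It turned to 0.05 and was -0.053 for the large subunit, 0.055 and -0.039 for the small, and 0.078 and -0.024 off chromosome 7, unscaled and quantile normalized. Lower members numbered 10 unscaled (background 11.0%), 17 with median centring (21.9%), 26 with slide as a fixed block (22.4%) and 28 within slide 1 (23.8%). Off chromosome 7 they numbered, in that order, 1 (background there 8.68%), 4 (18.8%), 13 (19.4%) and 15 (20.7%). Under quantile normalization 19 were lower there (background 29.3%). The main setting gave 34 there (26.2%). The count there was 24 without the filter on dim probes (34.0%), 30 for the dimmest probe (23.7%), 31 with a replicate block (27.5%) and 33 over the mean of probes (26.1%). It was 35 with normexp (28.5%), 38 with slide as a random block (27.9%), 42 with a robust eBayes trend (27.0%) and 50 without chromosome 7 genes (29.7%). Higher members numbered 1 with median centring (background 18.3%), 8 over the mean of probes and 7 for the dimmest probe. The genes called higher in all numbered 4642 over the mean of probes and 4139 for the dimmest probe. Leaving out paralogs and Rps19bp1, a choice made after seeing the data, removed every member called higher on scaled values and so left 0. Over all genes 6198 were called with median centring and 14475 without the filter on dim probes, against 9397. Of called genes 52.1% were higher, against 79.1% unscaled.

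Leaving out 1 array gave 30 to 56 lower members (30 without IRF7 replicate 2 and without IRF7 replicate 3, 31 without base vector replicate 1; 25.7 to 27.8% of all genes were lower), 17 to 43 off chromosome 7 (22.7 to 24.7% of all genes there were lower), and medians of -0.17 to -0.12 over all members. The chromosome 7 count was 13 each time. The series text speaks of independent experiments, but the labels do not say which arrays share one, so the numbers were not taken as pairs. The correlation of same-numbered arrays' deviations was 0.0447, 0.175 and 0.229, and every array correlated best with its own number. With a replicate block 44 members were lower (background 30.5%), 13 of them on chromosome 7, and 9691 genes were called.

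The sign of these single genes turned. Unscaled changes lie 0.20 above the scaled ones, which is the scaling shift, and the dimmest probe is another probe of the gene. Why the remaining settings turned the sign, and why probes of a gene differed, was not tested. Unscaled: Rpl22 0.17, Rps27 0.057, Rpl36a 0.076, Rpl36al 0.036, Rpl7 0.10, Rps6 0.083, Rps27a 0.025, Rps10 0.069, Rps26 0.077, Rpl5 0.046, Rpl11 0.10, Rpl23 0.086, Rpl38 0.082, Rpl10 0.05, Rps20 0.11, Rps25 0.11, Rpl39 0.038, Rps4x 0.047, Rpl13 0.076, Rpl35a 0.16, Rps12 0.12, Rps18 0.004, Rps24 0.045, Rplp0 0.12, Rplp1 0.059, Rplp2 0.0056, Rpsa 0.19 and Rack1 0.012. Under quantile normalization: Rpl7 0.042, Rps26 0.015, Rpl11 0.041, Rpl23 0.0011, Rpl38 0.021, Rpl13 0.0051, Rpl35a 0.06, Rps12 0.044, Rplp0 0.029 and Rpsa 0.0036. For the dimmest probe: Rpl22l1 0.61, Rpl11 0.44, Rpl23 0.21, Rps20 0.42, Rps25 0.16, Rpl13 0.67, Rpl21 -0.30, Rpl35a 0.62, Rps12 0.80, Rps13 0.051, Rps15a 0.18, Rps18 0.22 and Rpsa 0.29. Over the mean of probes: Rpl11 0.17, Rpl23 0.049, Rps20 0.17, Rps25 0.035, Rpl13 0.15, Rpl21 -0.11, Rpl35a 0.19, Rps12 0.36, Rps24 0.12 and Rpsa 0.14. Rpsa and Fau, both close to 0 on scaled values, also turned elsewhere: Rpsa was 0.0068 with normexp and 0.045 with slide as a block or slide 1 alone, and -0.032 to 0.018 with 1 array left out. Fau was -0.019 with median centring, -0.024 without chromosome 7 genes and -0.0032 without base vector replicate 1.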

Other observations

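By chromosome, the members' median was below 0 on each chromosome that held members. It lay below the median of the other genes there on all but chromosome 11. The share of members called varied between chromosomes. Every change given here is on scaled values and would shift up by 0.20 on the log2 scale without scaling. On chromosome 2, 4 of 4 members fell (median -0.19), where 44.0% of the other genes were lower and their median was -0.12. On chromosome 17, 5 of 7 fell and 1 rose (median -0.13), where 24.2% of the other genes were lower and 36.6% higher, with a median of 0.067. On chromosome 11, 4 of 7 fell (median -0.12) beside other genes at -0.14, of which 45.9% were lower. On chromosome 4, 0 of 5 passed in either direction (median -0.10) beside other genes at 0.072, of which 23.5% were lower and 38.2% higher. On the X chromosome, 3 of 4 fell (median -0.15) beside other genes at 0.10, of which 20.6% were lower.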
